A study of Homo sapiens with 5 samples.

Results

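Summits around 8 genes that respond to or feed back on ERK signalling were examined in 5 lists of ChIP-seq summits from HCT116, a human colorectal cancer cell line. Summits were taken when they lay within 20 kb of the hg19 span of FOSL1, JUN, ATF3, DUSP6, SPRY2, SPRY4, EREG or AREG. This gave 120 of the 209263 listed summits. One set of cells had received an siRNA against the long noncoding RNA ENO1-IT1 for 48 h, and the other a control siRNA for 48 h. Chromatin of each was precipitated with an antibody to histone H3 acetylated at lysine 27 (H3K27ac), found at active promoters and enhancers, or to KAT7, a histone acetyltransferase also called HBO1. Input DNA without antibody made the fifth list, and its label does not name an siRNA. Each list came from 1 library, so differences between siRNAs carry no test. Groups were taken from the sample titles, and the knockdown itself was not measured in these files.

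ERK is the last kinase of the cascade that runs from growth factor receptors through RAF and MEK. Active ERK raises transcription factors of the AP-1 group, including FOSL1 (FRA-1) and JUN, which bind DNA as dimers. ATF3 is a stress-induced factor of the ATF/CREB family that can pair with JUN. DUSP6 is a phosphatase that removes the activating phosphates from ERK, and SPRY2 and SPRY4 are Sprouty proteins that restrain signalling between receptors and ERK. EREG and AREG encode epiregulin and amphiregulin, growth factors that bind the EGF receptor.

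Promoter sequences are shown for the genes whose promoters held a CRE, CRE-like or ETS motif and whose H3K27ac lay less than 2 kb from the 5′ end of the span (JUN, DUSP6 and AREG), and for SPRY4, whose H3K27ac summits of both conditions lay 1 bp apart at that end. Each runs from 250 bases before to 50 bases after the gene's start, 5′ to 3′ on the gene's strand, as given by RefSeq for GRCh38.p14. Capitals mark the motif matches named in the next paragraph.
JUN: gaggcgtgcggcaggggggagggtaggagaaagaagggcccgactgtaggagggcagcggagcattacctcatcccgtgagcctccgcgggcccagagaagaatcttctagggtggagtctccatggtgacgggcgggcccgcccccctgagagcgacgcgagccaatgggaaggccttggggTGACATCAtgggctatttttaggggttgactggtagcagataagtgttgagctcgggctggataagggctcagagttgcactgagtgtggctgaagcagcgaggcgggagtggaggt
DUSP6: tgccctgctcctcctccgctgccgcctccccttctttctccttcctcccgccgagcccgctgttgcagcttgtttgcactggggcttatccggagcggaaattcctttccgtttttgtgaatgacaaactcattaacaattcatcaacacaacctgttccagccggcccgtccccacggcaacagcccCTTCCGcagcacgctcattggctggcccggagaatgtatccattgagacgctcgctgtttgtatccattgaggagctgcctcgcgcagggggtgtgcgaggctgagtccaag
SPRY4: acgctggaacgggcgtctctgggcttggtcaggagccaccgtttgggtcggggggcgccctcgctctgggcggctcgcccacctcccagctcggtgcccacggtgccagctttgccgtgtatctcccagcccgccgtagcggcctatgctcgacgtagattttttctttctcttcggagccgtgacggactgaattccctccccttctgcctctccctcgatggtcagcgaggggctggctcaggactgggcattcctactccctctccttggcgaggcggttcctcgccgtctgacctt
AREG: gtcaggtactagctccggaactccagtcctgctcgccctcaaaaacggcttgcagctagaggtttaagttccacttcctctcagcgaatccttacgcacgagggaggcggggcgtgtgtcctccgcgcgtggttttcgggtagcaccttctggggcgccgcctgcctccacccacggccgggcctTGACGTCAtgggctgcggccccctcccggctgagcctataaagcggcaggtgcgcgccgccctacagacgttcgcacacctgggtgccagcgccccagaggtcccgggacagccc

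In GRCh38.p14 these windows are chromosome 1, 58783998 to 58784297 on the minus strand for JUN, chromosome 12, 89352452 to 89352751 on the minus strand for DUSP6, chromosome 5, 142324198 to 142324497 on the minus strand for SPRY4, and chromosome 4, 74444886 to 74445185 on the plus strand for AREG. Both strands were searched for AP-1 (TGANTCA), CRE (TGACGTCA), ETS (CGGAAG) and the CRE-like TGACATCA, the last added after the promoters had been seen. AREG held a CRE beginning 65 bases before its start, JUN a CRE-like match beginning 67 bases before its start, and DUSP6 an ETS match, read as CTTCCG on the gene's strand, beginning 62 bases before. Of the 35116 promoters of this length in the table, 1.85% held a CRE, 2.61% the CRE-like letters, 19.5% the ETS letters and 7.71% the AP-1 letters. The upstream ATF3 promoter also held TGACATCA, beginning 123 bases before its start, and the inner ATF3 promoter an ETS match. None of the letters searched was found in the SPRY4, EREG or 3 SPRY2 windows. A promoter was in the table for 7 of the 8 genes, all but FOSL1. Summits are placed in hg19 and spans were rounded to 1 kb, so summits were not aligned with these bases.

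In the lists as a whole, ENO1-IT1 siRNA cells had 31839 H3K27ac and 24611 KAT7 summits, control siRNA cells 29429 and 122439, and input 945. The depth of each library is unknown. A summit's score, deposited as a −log10 p or q value, grows with depth, so scores and ranks place a summit within its own list and show no change between lists.

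H3K27ac was listed in all 8 gene windows in both conditions, with 45 summits after ENO1-IT1 siRNA (95% Poisson interval 32.8 to 60.2) and 48 after control siRNA (35.4 to 63.6). Intervals here cover counting error only, and neighbouring summits are not independent. That is 9.91 and 10.6 summits per 100 kb of window, against 1.08 and 0.996 per 100 kb over chromosomes 1 to 22 and X, measured from the first to the last summit and so including assembly gaps. The FOSL1 window had 28.6 and 30.6 per 100 kb, and the lowest were JUN after ENO1-IT1 siRNA (2.27) and SPRY2 after control siRNA (2.17). All windows surround genes, and the rate around other genes was not computed, so the difference is not shown to be particular to these genes. KAT7 had 13 summits after ENO1-IT1 siRNA (6.92 to 22.2) and 14 after control siRNA (7.65 to 23.5), or 2.86 and 3.08 per 100 kb, against 0.826 and 4.12 over the chromosomes. The KAT7 counts in these windows were thus near each other although the whole control list was far longer. This held only without a score minimum and with margins up to 20 kb. At a score of at least 3 the counts were 10 after ENO1-IT1 siRNA and 1 after control siRNA. With a 50 kb margin they were 18 and 32. No input summit lay in any window, and none of the 120 summits had an input summit within 5000 bp. The input list held only 0.0291 summits per 100 kb over the chromosomes. Few or none were therefore to be found in windows of this size, and their absence says little about background.

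**Figure D1:**
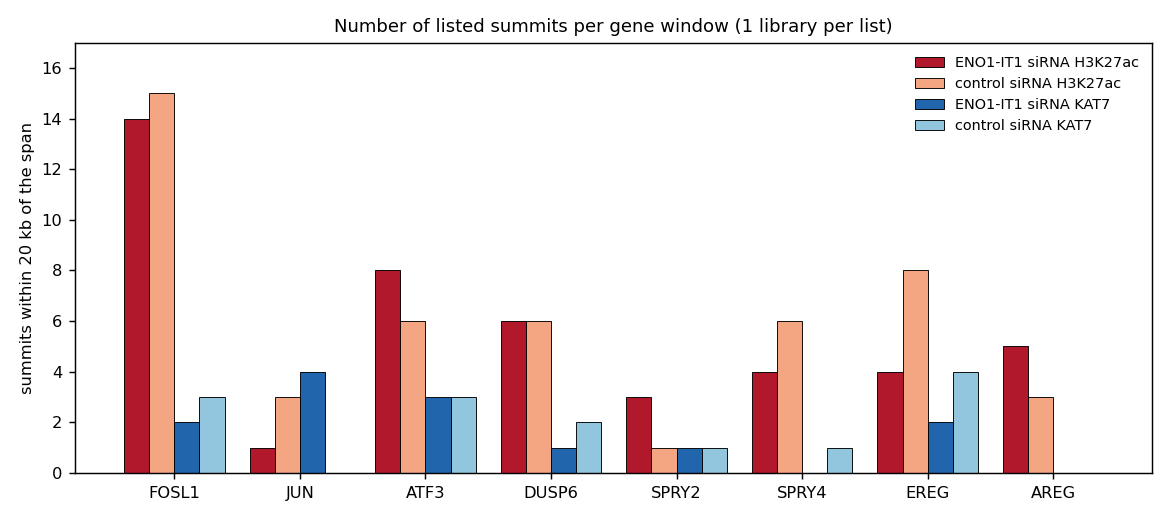
Number of listed summits within 20 kb of each gene's span, in 1 library per list. H3K27ac was most numerous at FOSL1, with 14 summits after ENO1-IT1 siRNA and 15 after control siRNA, and JUN held 4 KAT7 summits after ENO1-IT1 siRNA and none after control siRNA.

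H3K27ac stood at the start of most of these genes in both conditions. A summit lay within 1 kb of the 5′ end of the span at JUN, DUSP6, SPRY2, SPRY4 and EREG, and within 1 kb of the upper end of the FOSL1 span, the strand of FOSL1 not being given in the table used. The nearest H3K27ac summit was 1.8 kb inside AREG after ENO1-IT1 siRNA and 1.1 kb inside it after control siRNA. Span ends were rounded to 1 kb, so the 1 kb cut-off is rough and does not show that AREG lacked H3K27ac at its start. At ATF3 it was 2.4 kb inside the gene after ENO1-IT1 siRNA (score 1.53) and 3.0 kb upstream after control siRNA, both measured from the 5′ end of the span. ATF3 has 2 promoters in the table used, and the inner one was not placed in hg19. Whether H3K27ac stood at that inner start was therefore not examined, nor was any start that the table lacks. The H3K27ac summits listed inside ATF3 are thus not shown to lie away from a start. The highest-scored H3K27ac summit of the window lay within 1 kb of that end for 5 of the 8 genes in each condition. These were JUN, DUSP6, SPRY4 and EREG in both, with FOSL1 (upper end) after ENO1-IT1 siRNA and SPRY2 after control siRNA. The same count over other genes was not made. KAT7 lay within 1 kb of the 5′ end at 1 gene, SPRY2, after ENO1-IT1 siRNA, and at none after control siRNA.

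**Figure D2:**
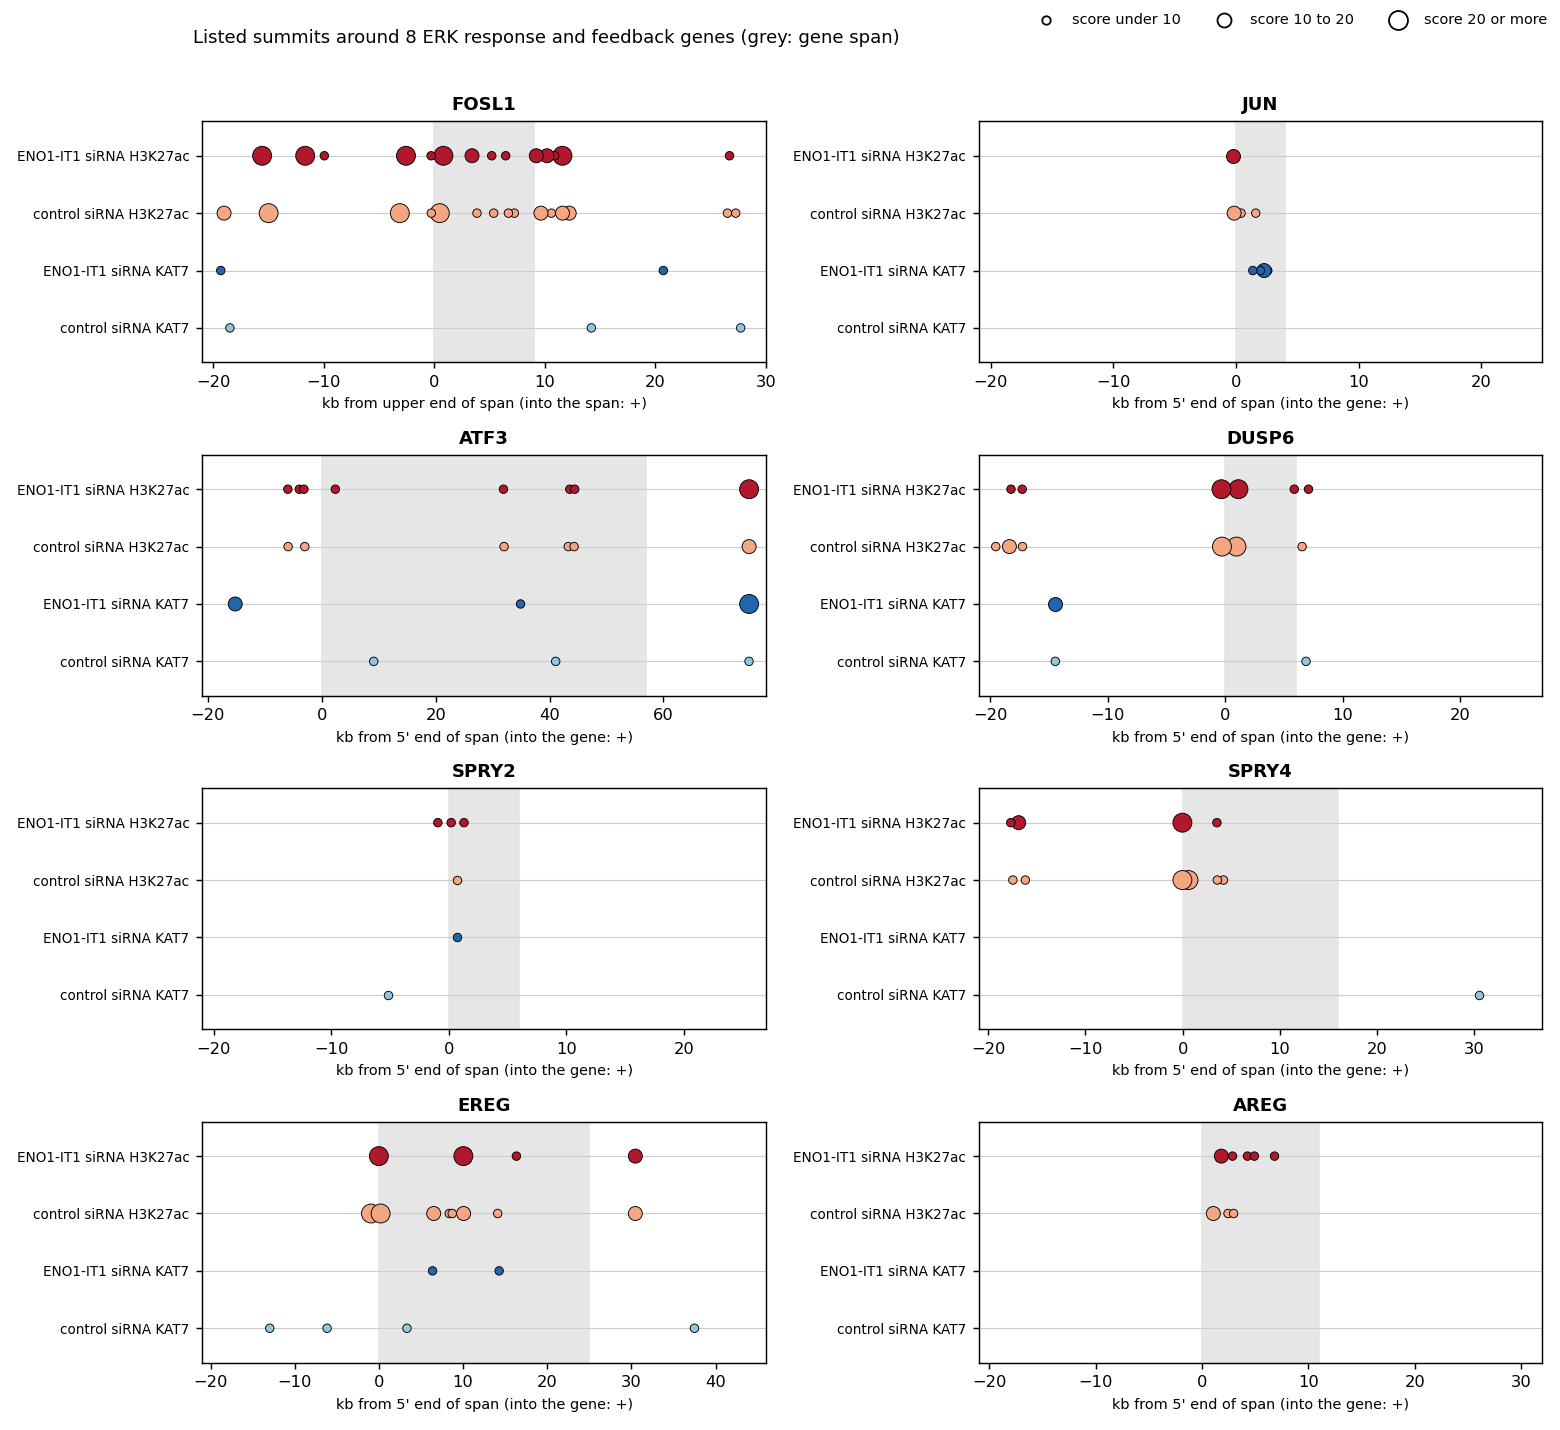
Each circle is a listed summit, placed by its distance in kb from the 5′ end of the gene's span (from the upper end for FOSL1), with the span in grey and circle size showing the score class within the list. H3K27ac circles recur at like places in both conditions, while the KAT7 circles of the conditions coincide at 2 places, 14.5 kb upstream of DUSP6 and 75.0 kb from the start of ATF3.

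Among the AP-1 genes, the window of FOSL1 (chromosome 11, 65.659 to 65.668 Mb) held H3K27ac most densely. It had 14 summits after ENO1-IT1 siRNA and 15 after control siRNA in 49.0 kb. Many of these lay outside the span, and other genes in the window were not annotated, so the summits are not assigned to FOSL1. Its highest summit after ENO1-IT1 siRNA was at 65667179 (score 57.8, rank 389 of 31839), inside the upper end of the span. The control list had its counterpart at 65667506 (score 31.9, rank 909 of 29429), 327 bp away. In the control the highest was at 65682985 (score 42.3, rank 453), 15.0 kb above the span, and the ENO1-IT1 siRNA list had its own at 65683573 (score 53.4, rank 478), 588 bp away. Both conditions thus showed strong acetylation at the upper end of the span and 15 kb beyond it, with summits 327 and 588 bp apart. Between these places, a summit at 65679677 (score 33.6) was listed after ENO1-IT1 siRNA with the nearest control summit 3308 bp away. Conversely, the control summit at 65687015 (score 14.1) had no ENO1-IT1 siRNA counterpart within 3442 bp. The other FOSL1 summits that scored at least 10 and missed a counterpart within 500 bp were at 65670562 (score 31.1) after ENO1-IT1 siRNA and at 65671121 (score 38.8) and 65655800 in the control, with neighbours 559, 559 and 612 bp away. KAT7 summits at FOSL1 were weak and all outside the span, 2 after ENO1-IT1 siRNA (scores 4.09 and 2.39) and 3 after control siRNA (scores 2.68, 1.31 and 2.68).

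JUN (chromosome 1, 59.246 to 59.250 Mb) had few H3K27ac summits and a run of KAT7 summits in 1 condition. H3K27ac was listed once after ENO1-IT1 siRNA, at 59250246 (score 13.9), and in the control at 59250151 (score 10.8), 59249584 (score 1.92) and 59248386 (score 2.37). The summit at the 5′ end was thus found in both conditions, 95 bp apart, and the 2 weak control summits inside the gene had no counterpart within 500 bp. KAT7 was listed inside JUN after ENO1-IT1 siRNA at 59247405, 59247703, 59248004 and 59248626, with scores of 2.31, 10.7, 5.36 and 2.35. The control KAT7 list had none in the window, its nearest summit lying 43.6 kb from the span. The 4 KAT7 summits fell within 1221 bp of one another. Of the 24611 KAT7 summits after ENO1-IT1 siRNA, 40 (0.163%) stood in runs of 4 as tight as this, and of the 122439 control KAT7 summits 20 did. JUN was looked at in this way after its summits had been seen.

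ATF3 (chromosome 1, 212.738 to 212.795 Mb) had 8 H3K27ac summits after ENO1-IT1 siRNA and 6 after control siRNA. Inside the gene they were weak, with scores from 1.53 to 8.74 after ENO1-IT1 siRNA and 1.88 to 3.96 after control siRNA, with most of them near 31.9 and 44.4 kb from the 5′ end after ENO1-IT1 siRNA and near 32.0 and 44.3 kb after control siRNA. The highest stood 18.0 kb beyond the far end of the span, at 212813030 in both conditions (scores 24.5 and 16.8). KAT7 lay on the same spot, at 212813034 after ENO1-IT1 siRNA (score 78.7, rank 499 of 24611) and at 212813018 after control siRNA (score 4.28, rank 16776 of 122439). This was the one place in the 8 windows where all 4 immunoprecipitated lists had a summit within 50 bp. It made 1 of the 48 control H3K27ac summits here, against 1385 of 29429 (4.71%) in the whole list. KAT7 was otherwise listed at separate places, among them 212722811 after ENO1-IT1 siRNA (score 13.0), 20465 bp from the nearest control KAT7 summit.

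At DUSP6 (chromosome 12, 89.741 to 89.747 Mb), 6 H3K27ac summits were listed in each condition, at like places. The 2 highest summits lay on either side of the 5′ end, at 89747325 and 89745876 after ENO1-IT1 siRNA (scores 29.8 and 28.9) and at 89747280 and 89746046 after control siRNA (scores 28.9 and 26.5), 45 and 170 bp from their counterparts. An upstream pair recurred as well, at 89764281 and 89765237 after ENO1-IT1 siRNA and at 89764260 and 89765372 after control siRNA. KAT7 was listed 14.5 kb upstream in both conditions, at 89761477 after ENO1-IT1 siRNA (score 15.7) and at 89761468 after control siRNA (score 2.68). Neither had H3K27ac within 2 kb.

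SPRY2 (chromosome 13, 80.910 to 80.916 Mb) had 3 H3K27ac summits after ENO1-IT1 siRNA, at 80914709, 80915800 and 80916933 (scores 8.38, 8.09 and 3.42), and 1 after control siRNA, at 80915303 (score 7.31). The control summit fell between the first 2 of the others, 594 and 497 bp from them. KAT7 was listed at 80915341 after ENO1-IT1 siRNA (score 5.83), and in the control 5.2 kb upstream at 80921166 (score 1.31).

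SPRY4 (chromosome 5, 141.689 to 141.705 Mb) held the highest-scored H3K27ac summit of all 8 windows after ENO1-IT1 siRNA, at 141705033 (score 71.8, rank 220 of 31839). Its control counterpart was at 141705034 (score 33.3, rank 811 of 29429). In the control a neighbouring summit at 141704405 (score 24.3), inside the gene, was listed in addition, 628 bp from the ENO1-IT1 siRNA summit. Upstream of the gene, a summit at 141721870 (score 18.9) after ENO1-IT1 siRNA stood 599 bp from the nearest control one. KAT7 had no summit in the window after ENO1-IT1 siRNA and 1 after control siRNA, at 141674490 (score 2.68), on the far side of the gene.

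Of the ligand genes, EREG (chromosome 4, 75.230 to 75.255 Mb) had 4 H3K27ac summits after ENO1-IT1 siRNA and 8 after control siRNA. The summit at its 5′ end was the highest in both conditions, at 75230001 after ENO1-IT1 siRNA (score 51.0, rank 544) and at 75230209 after control siRNA (score 33.5, rank 804). A further 2 recurred 29 and 3 bp apart, at 75240040 and 75260475 after ENO1-IT1 siRNA (scores 24.5 and 15.2) and at 75240069 and 75260472 after control siRNA (scores 18.1 and 12.3). The summits listed in the control without a counterpart within 500 bp were at 75229063, 75236514, 75238362, 75238717 and 75244119, with scores of 21.4, 14.9, 4.56, 5.60 and 4.46. The first of these lay 938 bp from an ENO1-IT1 siRNA summit and the others 1323 to 3526 bp. KAT7 was listed inside EREG after ENO1-IT1 siRNA at 75236377 (score 9.58) and 75244291 (score 8.89). In the control KAT7 had 4 summits in the window, none scoring above 2.68, and 1 of them, at 75233339, lay inside the gene.

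AREG, next to EREG (chromosome 4, 75.310 to 75.321 Mb), had 5 H3K27ac summits after ENO1-IT1 siRNA and 3 after control siRNA, all inside the gene. After ENO1-IT1 siRNA they stretched from 1.8 to 6.8 kb from the 5′ end, with the highest at 75311823 (score 11.1). In the control they stretched from 1.1 to 3.0 kb, with the highest at 75311067 (score 11.0), 756 bp from the other. AREG was the one gene with no KAT7 summit in either condition. The nearest was 65.7 kb from its span after ENO1-IT1 siRNA and 34.6 kb after control siRNA.

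Ranked within their own lists, these H3K27ac summits spanned nearly the whole range. The median score was 7.67 after ENO1-IT1 siRNA and 6.73 after control siRNA, against 8.02 and 7.14 over the whole lists. At least 10 was reached by 18 of 45 (40.0%, exact 95% interval 25.7 to 55.7%) after ENO1-IT1 siRNA and 20 of 48 (41.7%, 27.6 to 56.8%) after control siRNA, where the lists had 40.1% and 31.2%. SPRY4, FOSL1 and EREG, in that order, held the best-ranked summits after ENO1-IT1 siRNA, and FOSL1, EREG and SPRY4 after control siRNA. JUN, SPRY2 and AREG reached no score above 13.9 in either.

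**Figure D3:**
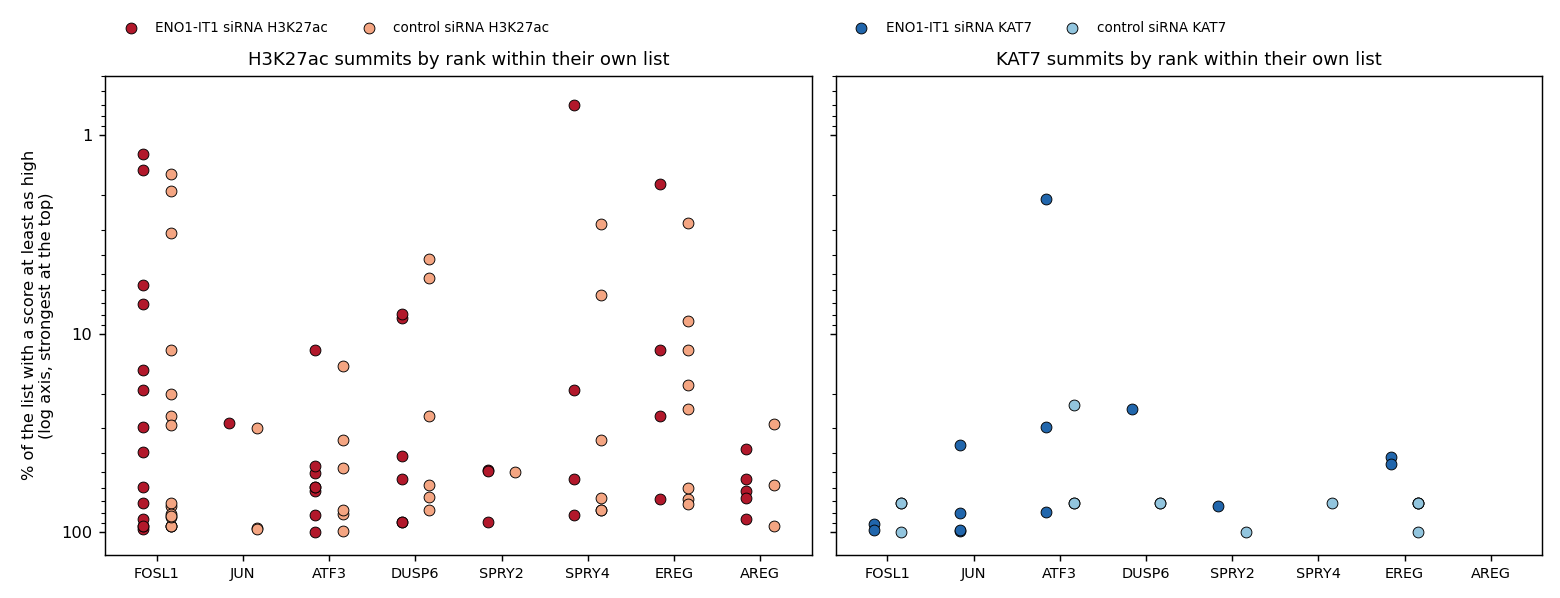
Each point is a summit, placed by the percent of its own list with a score at least as high (log axis, strongest at the top), for ENO1-IT1 siRNA left of control siRNA at each gene. FOSL1, SPRY4 and EREG have H3K27ac summits in the top 3% of both lists. Among the KAT7 summits of these windows, the one beyond ATF3 is the best-ranked in both conditions. The other control KAT7 points stand at 2 heights, those of the tied scores 2.68 and 1.31. The lists differ in length and their depths are unknown, so heights in different colours show no change.

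Most H3K27ac positions of these genes were listed in both conditions. Within 500 bp the share of all summits after ENO1-IT1 siRNA was near that of the whole list. The control share, and both shares of summits scoring at least 10, were below those of their lists, with wide intervals. Of the summits after ENO1-IT1 siRNA, 29 of 45 had a control summit within 500 bp, or 64.4% (48.8 to 78.1%), and over the whole list 64.3% had. Of the control summits, 29 of 48 had an ENO1-IT1 siRNA summit, or 60.4% (45.3 to 74.2%), against 71.9%. Widening the distance to 2000 bp raised the shares to 40 of 45 (88.9%) and 45 of 48 (93.8%), against 81.1% and 93.5%. The shared summits lay a median of 135 bp apart, against 96.0 and 101 bp over the lists. Among summits scoring at least 10, 13 of 18 after ENO1-IT1 siRNA (72.2%, 46.5 to 90.3%) and 12 of 20 after control siRNA (60.0%, 36.1 to 80.9%) were shared within 500 bp, against 88.0% and 81.1% of the lists. At 2000 bp these became 17 of 18 (94.4%, 72.7 to 99.9%) and 18 of 20 (90.0%, 68.3 to 98.8%), against 98.2% and 97.8%. The 3 stronger summits with no counterpart in 2000 bp were those at 65679677 near FOSL1 after ENO1-IT1 siRNA, and at 65687015 near FOSL1 and 75236514 in EREG after control siRNA.

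**Figure D4:**
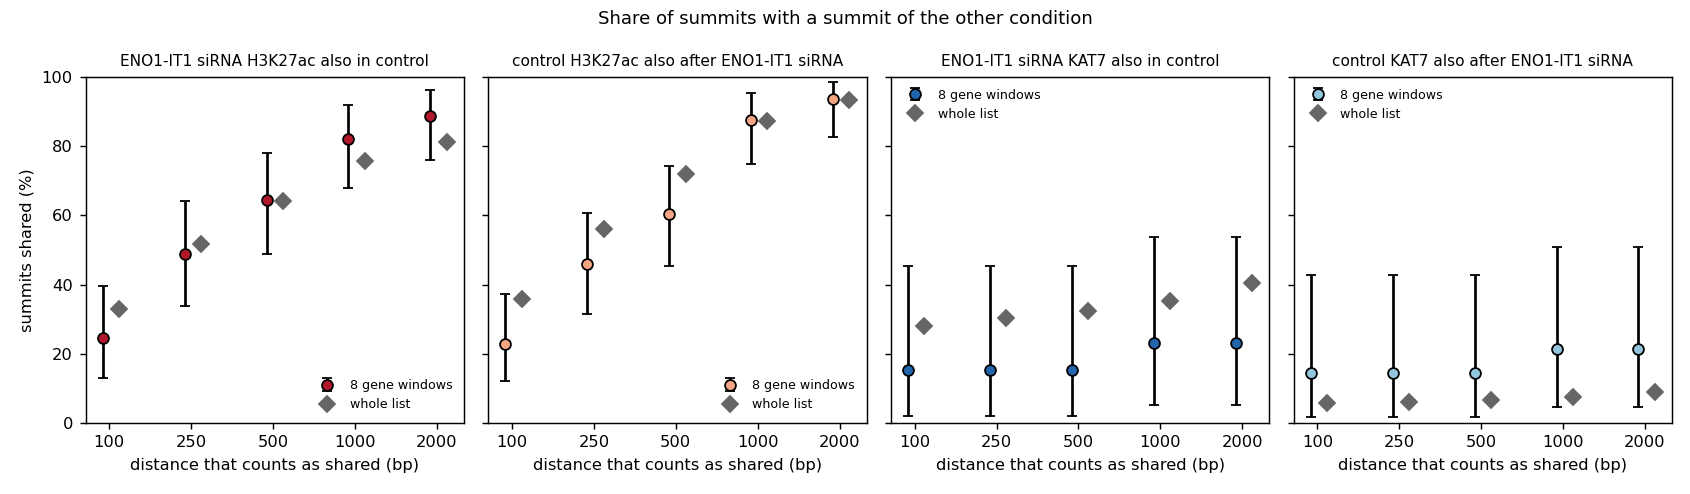
Share of summits with a summit of the same mark in the other condition, by the distance that counts as shared, for the 8 gene windows (circles, bars exact 95% intervals for counting error) and the whole list (diamonds). The H3K27ac shares climb with distance alongside the whole lists, and the KAT7 shares rest on 2 or 3 summits at every distance.

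Most KAT7 summits were listed in 1 condition only, both at these genes and in the whole lists. The median control KAT7 score was 2.68 in the windows and 2.68 over the list. Of the 14 control KAT7 summits, 13 (92.9%) had 1 of the 2 commonest scores of their list, 2.68 or 1.31, as did 64.2% of the whole list. None of the 14 reached 10, against 2.75% of the list. After ENO1-IT1 siRNA, 4 of 13 reached 10 (30.8%, 9.09 to 61.4%), against 37.4% of the list. A control KAT7 summit stood within 500 bp of 2 of the 13 (15.4%, 1.92 to 45.4%), against 32.2% of the list. From the control side 2 of 14 were shared (14.3%, 1.78 to 42.8%), against 6.62%. These were the DUSP6 and ATF3 sites, at which the KAT7 summits of the conditions lay 9 and 16 bp apart.

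KAT7 and H3K27ac of the same condition stood together at a few places in these windows. After ENO1-IT1 siRNA, 2 of 13 KAT7 summits had H3K27ac within 500 bp (15.4%, against 19.0% of the list), at ATF3 and SPRY2. In the control it was 3 of 14 (21.4%, 4.66 to 50.8%, against 3.67%), at FOSL1, DUSP6 and ATF3. These windows held 10.6 control H3K27ac summits per 100 kb, against 0.996 over the chromosomes. Seen from H3K27ac, 2 of 45 summits after ENO1-IT1 siRNA (4.44%, 0.543 to 15.1%) and 3 of 48 after control siRNA (6.25%, 1.31 to 17.2%) had KAT7, against 14.3% and 14.8%. None of the H3K27ac summits at the 5′ ends of JUN, DUSP6, SPRY4 or EREG, or at the upper end of FOSL1, had KAT7 of its own condition within 500 bp.

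Several KAT7 summits listed after ENO1-IT1 siRNA stood where H3K27ac was listed in control cells. Of the 13, 7 had a control H3K27ac summit within 500 bp (53.8%, 25.1 to 80.8%), against 16.3% of the list. Of these, 5 had no H3K27ac of their own condition within 500 bp (38.5%, 13.9 to 68.4%), against 775 of 24611 (3.15%). In EREG, KAT7 at 75236377 and 75244291 lay 137 and 172 bp from the control H3K27ac summits at 75236514 and 75244119, while the nearest H3K27ac after ENO1-IT1 siRNA was 3663 and 2054 bp away. In JUN, KAT7 at 59248004 and 59248626 flanked the control H3K27ac summit at 59248386, 382 and 240 bp from it. Beside FOSL1, KAT7 at 65687313 lay 298 bp from the control summit at 65687015. The 5 summits thus stand at 4 control H3K27ac positions in the windows of 3 genes, the one beside FOSL1 lying outside its span. In the order given, the KAT7 summits scored 9.58, 8.89, 5.36, 2.35 and 2.39. The control H3K27ac summits scored 14.9, 4.46, 2.37 and 14.1, so several of these summits were weak. The opposite arrangement, control KAT7 at H3K27ac listed after ENO1-IT1 siRNA but not in the control, occurred at 0 of 14, with an interval of 0 to 23.2% that includes the 1.07% of that list. At 250 bp it occurred at 1 of 14 (7.14%, against 1.01%), the control KAT7 summit at 89740126 beside DUSP6. This comparison was chosen after the values had been seen, and the windows hold more H3K27ac than the genome at large. The part of either in the shares was not tested.

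The 20 kb margin decided membership for a few summits. Just inside it were the control H3K27ac summit 19.5 kb from DUSP6 (score 5.03) and the ENO1-IT1 siRNA KAT7 summit 19.3 kb from FOSL1 (score 2.39). Just outside were the ENO1-IT1 siRNA H3K27ac summit 20.4 kb from DUSP6 (score 10.3) and the control H3K27ac summit 20.1 kb from FOSL1 (score 2.69). In all, 30 of the 120 summits lay between 10 and 20 kb from a span, and 25 further summits lay between 20 and 30 kb.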

How the data were processed

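H3K27ac and KAT7 ChIP-seq and input of HCT116 cells gave 5 libraries, 1 per group, grouped by sample title. Bowtie, MACS2 and hg19 are named in the submitters' processing notes; versions, options and the calling control: not given in the sources used here. Each list was deposited by the authors per sample, with a summit of 1 bp per peak and a −log10 p or q score, which of these not being stated. Peak names carry a tag for duplicate removal. They also carry codes with the letters KO, for control as well as ENO1-IT1 siRNA cells, which the labels do not explain. The groups therefore rest on the sample titles alone. Depth is unknown.

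Summits within 20 kb of the 8 spans were taken, counted from 1. A summit was shared at 500 bp or less, and near input at 1000 bp or less. Shares carry exact Clopper-Pearson 95% intervals and counts exact Poisson intervals, for counting error alone; there is no test. Python 3.11.15, numpy 2.4.6, pandas 2.3.3, SciPy 1.17.1 and matplotlib 3.10.9 were used, and the overlap code was tested on simulated data. Named summits were, per gene and list, the highest-scored and those scoring at least 10 without a counterpart, besides others added after their values were seen. The genes, lists and rules were chosen with earlier results of these data known. Alternatives were other distances, margins, score minimums, equal list lengths, merged summits and windows left out. Other genes of the pathway were not analysed here, since no hg19 annotation was used; gene names and strands came from RefSeq for GRCh38.p14.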

Additional observations from a re-analysis of the deposited data

How the results depend on the processing

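Of 205 alternative values, 181 stayed within the interval of the reported share or within 1.5 times the reported count, among them every value without 1 gene's window. Some of these could not move. The input count of 0 had to stay 0 with a 10 kb margin, a score minimum or a window left out. The intervals of the KAT7 shares are wide, so staying within them says little. The number that stayed is therefore no measure of robustness. The H3K27ac shares moved with the distance. They were 24.4% after ENO1-IT1 siRNA and 22.9% after control siRNA at 100 bp, 82.2% and 87.5% at 1000 bp, and 88.9% and 93.8% at 2000 bp. With a 10 kb margin the shared KAT7 share was 0% of 8 summits after ENO1-IT1 siRNA and 0% of 7 after control siRNA, since both shared sites lie farther out. With scores of at least 10 in both lists it was 0% of 4 after ENO1-IT1 siRNA, a value fixed by the control list, which has no KAT7 summit of that score in the windows. For the same reason the share of control H3K27ac summits with KAT7 could only be 0% of 20 at that minimum. With the minimum on the ENO1-IT1 siRNA list alone, 2 of 4 KAT7 summits were shared, against 48.2% of the list. With scores of at least 3, and with lists of equal length, 1 control KAT7 summit remained, shared and on H3K27ac (100%). The share of ENO1-IT1 siRNA KAT7 summits with control H3K27ac, chosen after seeing the data, was 38.5% at 250 bp and 69.2% at 1000 bp, and without H3K27ac of their own 30.8% and 53.8%. The opposite arrangement was 7.14% of 14 control KAT7 summits at 250 bp and 0% at 1000 bp.

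H3K27ac counts were 18 after ENO1-IT1 siRNA and 20 after control siRNA at a score of at least 10, and the control count was 73 with a 50 kb margin. KAT7 counts were 8 and 7 with a 10 kb margin and 4 and 0 at a score of at least 10. The control KAT7 count was 32 with a 50 kb margin and 1 at a score of at least 3. No paired analysis was possible because each group had 1 library. Unknown depth and few summits limit each share, and the summits of 1 window are neighbours on the same chromatin.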
